A study of Mus musculus with 24 samples.

Results

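In mouse retina, 6 genes had been picked because a SOX8 or SOX9 peak at them was among the widest of its list: Cic, Tnrc18, Gse1, Plec, Ints1 and Pmepa1. They are 6 of 21883 protein-coding genes on the main chromosomes of the RefSeq table for GRCm38.p6. Each was taken as the gene plus 5 kb on either side. Because SOX peak width chose them, the widths of their SOX peaks, and everything else in those lists, are given as a description with no test.

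The data came from CUT&RUN, in which an antibody brings a nuclease to a chromatin protein and the released DNA is sequenced. Retinas were taken from wild-type mice aged 2 days (P2) or 17 days (P17) after birth, and the labels name no treatment. At each age there were 4 SOX8 libraries (2 antibodies, 2 replicates each) and 2 libraries each for SOX9, for H3K4me3, for H3K27ac and for a nonspecific IgG. Nuclei were prepared from retina, a mixture of cell types, and the labels do not say whether animals were pooled. The 8 deposited peak lists, 1 for each target and age, hold 349901 peaks with a start and an end but no height, so no replicate error can be given for any value below. The IgG libraries were not analysed here, and the depth of the libraries is unknown.

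SOX8 and SOX9 belong to the SOXE group of transcription factors, which bind DNA through an HMG box. In the retina SOX9 is known from progenitors and from Müller glia, the main glial cells, and SOX8 is found in the same lineage. H3K4me3 is a histone mark of active promoters, and H3K27ac a mark of active promoters and enhancers. The genes have separate roles. CIC is an HMG-box repressor of transcription that signalling through receptor tyrosine kinases and ERK relieves. TNRC18 is a large nuclear protein that recognises the silencing mark H3K9me3. GSE1 is a partner of the LSD1-CoREST-HDAC complex, which removes active histone marks. INTS1 is a scaffold subunit of Integrator, the complex that cleaves nascent RNA at promoters and at small nuclear RNA genes. Plectin (Plec) ties intermediate filaments to the rest of the cytoskeleton and to junctions. PMEPA1 is a membrane-anchored inhibitor of TGF-beta signalling.

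The lists were checked against genes of known tissues. H3K4me3 peaks lay at the retinal genes Rax and Crx at both ages and at Rlbp1, a gene of Müller glia, at P2 but not at P17. None lay at Alb, Myod1 or Ins2, genes of liver, muscle and pancreas.

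The 6 genes were longer than most, with a median length of 56.3 kb against 17.2 kb over all protein-coding genes. In all, 86 SOX peaks touched them, 40 at P2 and 46 at P17. P2 SOX8 peaks lay at 4 of the 6 genes, P17 SOX8 at 5, P2 SOX9 at 5 and P17 SOX9 at 6. Over all protein-coding genes the shares with such a peak were 15.1%, 13%, 27.7% and 15.7% in the same order. Among the 8814 genes at least as long as Ints1, the shortest of the 6, they were 18%, 13.6%, 34.4% and 16.8%. Since the genes were chosen from these lists, nothing is read from that contrast. Peaks in all 4 SOX lists were found at Cic, Gse1 and Pmepa1 (3 of 6, against 6.45% of all genes and 6.67% of those at least as long as Ints1). Of all genes, 66.2% had no peak in any SOX list. Tnrc18 lacked a P17 SOX8 peak, Plec a P2 SOX8 peak, and Ints1 both P2 SOX peaks.

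Each gene held a peak among the 5 widest of some SOX list. The fifth and sixth widest peaks measured 7484 and 7140 bp in P2 SOX8 and 10697 and 10505 bp in P17 SOX8. In the SOX9 lists they measured 19119 and 17442 bp at P2 and 25004 and 23811 bp at P17. The peak at Pmepa1 ranked 1 of 5476 in P2 SOX9, and the peak at Gse1 ranked 2 of 2855 in P17 SOX9. Tnrc18 ranked 3 of 2653 in P2 SOX8, and Plec 3 of 2400 in P17 SOX8. Cic ranked 4 both in P2 SOX8 and in P17 SOX9, and Ints1 ranked 5 in P17 SOX9. Median widths of the whole lists were 2217, 2912, 2668 and 5336 bp for P2 SOX8, P17 SOX8, P2 SOX9 and P17 SOX9. The same genes also held narrow peaks. The 86 peaks ranged from 597 to 30864 bp with a median of 4311 bp, 68 were in the wider 50% of their list and 30 in the widest 10%.

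Peaks of at least 10 kb lay at 0 of 6 genes in P2 SOX8 (0.00457% of all genes), 2 in P17 SOX8 (0.0685%), 2 in P2 SOX9 (0.137%) and 4 in P17 SOX9 (1.55%). They were at Gse1 and Plec in P17 SOX8, at Tnrc18 and Pmepa1 in P2 SOX9, and at Cic, Gse1, Plec and Ints1 in P17 SOX9. Of these, Ints1 alone had a P17 SOX9 peak of that width and no SOX peak at P2, a combination found in 0.507% of all genes. These counts describe the choice of the genes and are not read further.

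**Figure D1:**
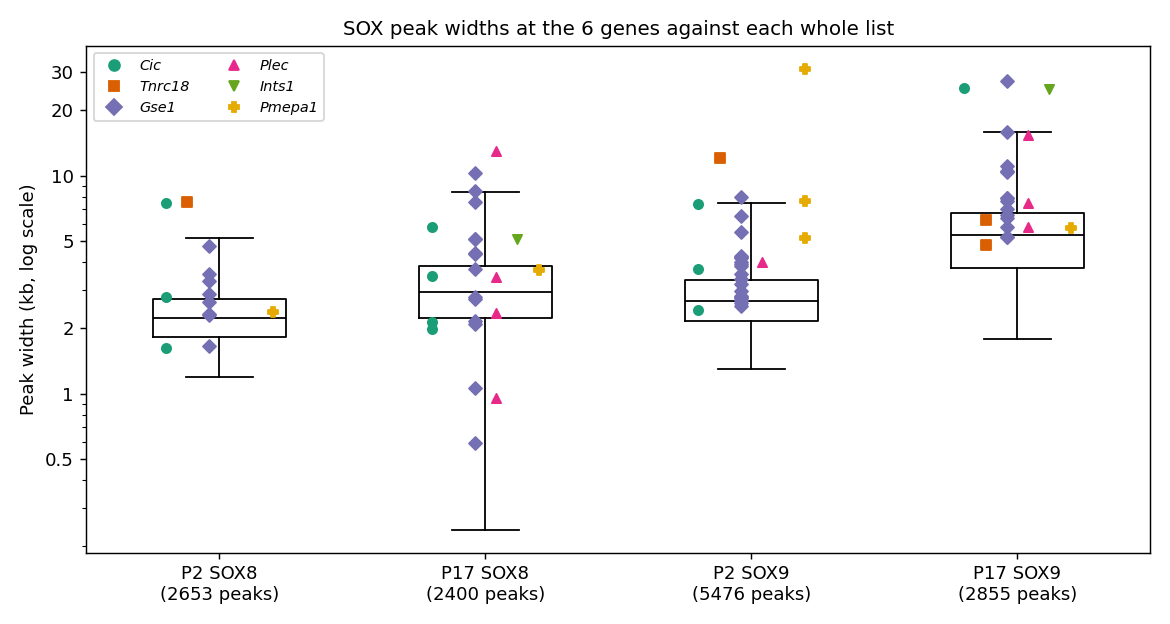
Width of each SOX peak at the 6 genes (symbols, kb, log scale) by list; boxes give the median and quartiles of the whole list and whiskers its 1st and 99th percentiles. Widths of the symbols run from 597 bp, a P17 SOX8 peak at Gse1, to 30864 bp, the P2 SOX9 peak at Pmepa1.

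In the descriptions that follow, distances are counted from the lower-numbered end of each gene, and a share of a peak under a mark is the percent of its bases that peaks of that mark cover. Gene starts come from the RefSeq promoter table of GRCm38.p6, which holds entries for Cic, Tnrc18, Gse1 and Ints1. For Plec and Pmepa1 places are given against the gene ends alone. No exon positions were in the tables used, so places are given by gene and start.

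Cic lies at chr7:25267658-25294159 on the plus strand and has 2 listed starts, at 0.041 and 14.5 kb. At P2 the factors had the same layout. SOX8 peaks of 2770, 7503 and 1617 bp and SOX9 peaks of 3718, 7401 and 2415 bp lay at the first start, at the second start and beyond the gene at its neighbour Pafah1b3. The widest P2 SOX8 peak, at chr7:25277940-25285442, covered the second start, and 83.4% of it lay under the P2 SOX9 peak. At P17, SOX8 again had peaks at both starts and at Pafah1b3 (1982, 5810 and 2125 bp), and a further peak of 3453 bp from 4.77 to 8.22 kb, between the starts. P17 SOX9 had 1 peak of 25261 bp, at chr7:25264795-25290055, which covered both starts and the space between them and did not reach Pafah1b3. H3K4me3 also formed 3 separate peaks at each age, at the starts (4468 and 7504 bp at P2, 5685 and 8896 bp at P17) and at Pafah1b3 (5940 and 3334 bp). The P17 SOX9 peak thus ran across a gap in H3K4me3, and 57.7% of its bases were under that mark and 83.3% under H3K27ac.

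Both Cic promoters are shown because SOX8, SOX9 and both marks covered each of them completely at both ages. The first and second are at chr7:25267449-25267748 and chr7:25281929-25282228, each running from 250 bases before the start to 50 after it.
Cic first promoter: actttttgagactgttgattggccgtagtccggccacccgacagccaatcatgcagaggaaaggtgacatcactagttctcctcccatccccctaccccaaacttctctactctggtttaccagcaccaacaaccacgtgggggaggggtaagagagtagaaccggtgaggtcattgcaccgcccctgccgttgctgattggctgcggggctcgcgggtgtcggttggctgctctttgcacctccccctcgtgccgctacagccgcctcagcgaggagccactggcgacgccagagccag
Cic second promoter: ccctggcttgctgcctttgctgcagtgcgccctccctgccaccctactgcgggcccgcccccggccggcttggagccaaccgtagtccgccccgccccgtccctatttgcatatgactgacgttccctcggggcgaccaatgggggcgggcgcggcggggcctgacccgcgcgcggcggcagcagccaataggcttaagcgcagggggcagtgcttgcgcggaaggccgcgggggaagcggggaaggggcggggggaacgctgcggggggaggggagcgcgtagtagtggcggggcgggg
The second promoter was richer in CG pairs, with 34 against 17 in the first and a median of 7 over 32851 RefSeq promoters. Its GC content was 74.3%, against 60.3% in the first and a median of 52.7%. Core letter strings of SOX motifs were searched on both strands, and any match is printed in capitals. The string ACAAAG occurs in 18.7% of RefSeq promoters. The string ACAATG was also searched, as was the last, AACAAT, which can overlap it. Neither Cic promoter held any of the 3, and 33.2% of RefSeq promoters of the same length hold at least 1. The wide P17 SOX9 peak also overlapped the noncoding RNA gene Gm45974, which lies inside Cic.

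Tnrc18 lies at chr5:142724602-142823668 on the minus strand, so its listed start, at 93.1 kb, is near the higher-numbered end. P2 SOX8 had 1 peak of 7538 bp (chr5:142816458-142823995) and P2 SOX9 1 peak of 12070 bp (chr5:142812413-142824482). Both covered the start. The SOX8 peak lay wholly inside the SOX9 peak, and both lay wholly under P2 H3K4me3 and P2 H3K27ac. The P2 H3K4me3 peak there measured 16692 bp and ranked 11 of 9134. The SOX9 peak also overlapped the noncoding RNA gene Gm31365. At P17 no SOX8 peak was listed. P17 SOX9 had a peak of 4830 bp from 95.6 to 100 kb, at the higher-numbered end and 2568 bp from the listed start. It also had a peak of 6242 bp from 46.3 to 52.5 kb, in the middle of the gene, where no other SOX list had a peak. That middle peak had no base under P17 H3K4me3 or P17 H3K27ac, the nearest P17 peak of either mark being 34742 bp away, while 88.5% of it lay under P2 H3K27ac.

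The Tnrc18 promoter (chr5:142817613-142817912, minus strand) was completely under both P2 SOX lists and under neither P17 SOX list, and both marks covered it completely at both ages.
Tnrc18 promoter: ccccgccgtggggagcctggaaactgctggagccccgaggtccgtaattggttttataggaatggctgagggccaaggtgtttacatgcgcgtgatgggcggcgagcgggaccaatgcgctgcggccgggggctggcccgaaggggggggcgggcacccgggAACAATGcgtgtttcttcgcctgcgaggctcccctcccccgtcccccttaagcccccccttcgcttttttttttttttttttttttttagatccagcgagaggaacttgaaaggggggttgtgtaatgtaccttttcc
The capitals mark AACAAT and ACAATG, which overlap here. Their first bases lie at -88 and -87 with the start counted as 0. Of all RefSeq promoters, 10.7% hold AACAAT and 12.6% hold ACAATG on either strand. The match describes the letters and does not show a binding site.

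Gse1 is the longest of the 6, at chr8:120228501-120581383 (353 kb) on the plus strand, longer than 98.0% of protein-coding genes. Its listed starts lie at 260, 307 and 309 kb, deep in the annotated gene. Its window held 55 of the 86 SOX peaks: 8 of P2 SOX8, 14 of P17 SOX8, 19 of P2 SOX9 and 14 of P17 SOX9. Of the P17 SOX8 peaks, 1 of 3714 bp lay beyond the gene, at its neighbours Gins2 and Gm10614. Most peaks in 3 of the 4 SOX lists ended before the first listed start: 9 of 14, 11 of 19 and 10 of 14, against 4 of 8 in P2 SOX8. The stretch before that start is itself 260 of the 353 kb of the gene, so no preference for it is read from them. The counts include P2 SOX8, P2 SOX9 and P17 SOX9 peaks of 2877, 4184 and 7008 bp that crossed the lower-numbered gene end. No start is listed there, but H3K4me3 peaks of 4488 bp at P2 and 8476 bp at P17 also crossed that end. Median widths at the gene were 2760 and 4037 bp for SOX8 at P2 and P17, and 3552 and 7794 bp for SOX9. The widest P17 SOX9 peak there covered 27245 bp, at chr8:120544184-120571428 and 315.7 to 342.9 kb into the gene, 6775 bp beyond the nearest listed start. It had no base under H3K4me3 and was wholly under H3K27ac. Of it, 15.5% was under P2 SOX9 and 7.90% under P17 SOX8. The widest P17 SOX8 peak, of 10242 bp at 58.7 to 69.0 kb, likewise had no base under H3K4me3 and lay wholly under H3K27ac. P2 SOX9 peaks covered 93.8% of it.

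The marks at Gse1 were unlike each other. H3K4me3 had 3 peaks at P2 (4488, 11772 and 5812 bp) and 5 at P17 (8476, 4866, 9314, 3475 and 6101 bp), and it covered 6.08% and 8.88% of the gene window. H3K27ac covered 90.5% at P2 in 52 peaks and 93.2% at P17 in 15 peaks, the widest of 102365 bp, which ranked 32 of 29909. SOX peaks were therefore almost wholly on acetylated bases: 99.3% and 99.7% of the bases under SOX8 peaks at P2 and P17, and 99.5% and 99.6% of those under SOX9 peaks. With nearly the whole window acetylated, that share is close to the share of the window itself. Peaks of all 8 lists touched each of the 3 listed promoters. The one at the first listed start (chr8:120488616-120488915, plus strand) was completely under all 8 and is shown as an example.
Gse1 first listed promoter: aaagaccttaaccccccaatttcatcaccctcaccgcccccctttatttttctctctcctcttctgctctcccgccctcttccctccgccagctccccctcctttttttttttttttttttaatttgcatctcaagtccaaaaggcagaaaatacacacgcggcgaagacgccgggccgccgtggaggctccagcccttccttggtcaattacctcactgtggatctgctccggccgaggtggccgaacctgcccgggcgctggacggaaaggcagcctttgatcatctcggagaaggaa
It held none of the 3 SOX core letter strings, and 17 CG pairs. The other Gse1 promoters held 23 and 37 CG pairs and no SOX core string.

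Ints1 lies at chr5:139751282-139775702 on the minus strand, with its listed start at 24.4 kb. It had no SOX peak at P2. At P17, SOX9 had 1 peak of 25004 bp (chr5:139748360-139773363) and SOX8 1 peak of 5130 bp from 2.56 to 7.68 kb, wholly inside the SOX9 peak. The microRNA gene Mir7037, inside Ints1, also lay under the SOX9 peak. The SOX9 peak began at -2.92 kb, past the end of the gene opposite to the start, and ran through the gene body to 22.1 kb. It stopped 2315 bp short of the listed start. Both marks stood at the start instead. H3K4me3 peaks measured 2091 bp at P2 and 2408 bp at P17, ranking 8886 of 9134 and 8670 of 9629, among the narrowest of their lists. The P17 H3K4me3 peak lay 726 bp beyond the end of the SOX9 peak, and the P17 H3K27ac peak, of 2052 bp, 1632 bp beyond it. The SOX9 peak thus had no base under either P17 mark. Among the 398 P17 SOX9 peaks under neither mark it was the widest. At P2, H3K27ac had 8 peaks along the gene, of 661 to 4792 bp, which covered 61.5% of the bases where the P17 SOX9 peak lay.

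The Ints1 promoter (chr5:139775629-139775928, minus strand) is shown because the wide SOX9 peak left it out. No SOX list covered any of it, and H3K4me3 covered all of it at both ages.
Ints1 promoter: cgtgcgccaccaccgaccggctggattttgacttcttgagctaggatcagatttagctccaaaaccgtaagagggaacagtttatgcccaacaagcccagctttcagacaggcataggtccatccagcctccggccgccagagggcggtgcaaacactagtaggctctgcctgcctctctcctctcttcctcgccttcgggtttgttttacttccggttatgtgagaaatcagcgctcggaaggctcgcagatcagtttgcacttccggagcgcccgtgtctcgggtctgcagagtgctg
It held 18 CG pairs, a GC content of 56.3% and none of the SOX core strings.

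Plec lies at chr15:76170974-76231378 and spans 60.4 kb. At P2 no SOX8 peak was listed and SOX9 had 1 peak of 4000 bp from 34.9 to 38.9 kb. At P17, SOX8 had 4 peaks of 2338, 3441, 958 and 13023 bp, and SOX9 had 3 peaks of 15303, 7458 and 5839 bp. The widest P17 SOX8 peak was at chr15:76194209-76207231 and 23.2 to 36.3 kb into the gene. It had no base under H3K4me3 and 3.84% under H3K27ac. The 15303 bp P17 SOX9 peak ran from -1.40 to 13.9 kb, across the lower-numbered end. It had no base under either P17 mark, and among the 398 such P17 SOX9 peaks it was the third widest. The 5839 bp SOX9 peak lay at the other end of the gene, from 56.5 to 62.4 kb, where it reached the next gene, Parp10, and nearly all of it was under a P17 H3K4me3 peak of 6190 bp. Of the 15303 bp peak, 100% lay under P2 H3K27ac, where a peak of 27299 bp was listed. SOX8 and SOX9 coincided in part at P17: SOX9 covered 49.6% of the bases under SOX8 peaks, and SOX8 covered 34.3% of those under SOX9 peaks.

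Pmepa1 lies at chr2:173224458-173276731 and spans 52.3 kb. P2 SOX9 had peaks of 5155, 7621 and 30864 bp there. The widest, at chr2:173252113-173282976, ran from 27.7 to 58.5 kb and passed the higher-numbered end of the gene. The other SOX lists each had 1 peak at that end: the P2 SOX8 peak measured 2378 bp, the P17 SOX8 peak 3688 bp and the P17 SOX9 peak 5773 bp. All 3 lay wholly inside the stretch of the wide P2 SOX9 peak and wholly under H3K4me3 of their own age. The P2 SOX9 peak had 49.2% of its bases under H3K4me3, whose peak of 15184 bp ranked 16 of 9134, and lay wholly under a P2 H3K27ac peak of 59964 bp that ranked 38 of 287845. At P17, the H3K4me3 peak measured 6182 bp, and H3K27ac had 6 peaks of 1981 to 10308 bp.

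The place of the SOX peaks differed between the genes. Of the 86 peaks, 65 lay inside a gene, 17 crossed a gene end and 4 lay in the flanks. At Tnrc18 the P2 SOX peaks that crossed the gene end lay wholly on H3K4me3, as did the P2 SOX8 peak at Pmepa1, while the P2 SOX9 peak there did so in part. The P17 SOX9 peaks of at least 10 kb at Ints1 and Plec, and 4 of the 5 at Gse1, had no base under H3K4me3. The sequence shared by all 4 SOX lists made up 24.9% of the bases under any SOX peak at Cic, 5.61% at Pmepa1, 4.99% at Gse1, and 0% at Tnrc18, Plec and Ints1. The 0% values were fixed beforehand, since Tnrc18, Plec and Ints1 each lacked a peak in some SOX list. Bases listed in 1 SOX list alone made up from 37.3% at Cic to 85.9% at Pmepa1.

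Whether the SOX peaks lay on marked chromatin was then compared by age. All 40 P2 SOX peaks at the genes overlapped P2 H3K27ac and 16 overlapped P2 H3K4me3. Over the whole P2 lists, 99.7% of SOX8 and 99.4% of SOX9 peaks overlapped H3K27ac, and 90.1% and 79.8% overlapped H3K4me3. At P17, 38 of 46 peaks overlapped H3K27ac, 17 overlapped H3K4me3 and 8 overlapped neither. Those 8 were 3 SOX8 and 2 SOX9 peaks at Plec, 1 of each at Ints1 and the middle SOX9 peak at Tnrc18. Over the whole P17 lists, 84.0% of SOX8 and 84.3% of SOX9 peaks overlapped H3K27ac, 69.7% and 66.5% overlapped H3K4me3, and 13.9% and 13.9% overlapped neither. At both ages the share of peaks with H3K4me3 was lower at the 6 genes than in the whole lists. Gse1 held 55 of the 86 peaks, 27 of them at P2 and 28 at P17. Of the bases under P2 SOX8 and P2 SOX9 peaks, P2 H3K4me3 covered 47.3% and 16.0% at Gse1. It covered 96.8% and 92.7% at Cic, 100% and 100% at Tnrc18, 100% and 35.8% at Pmepa1, and 0% at Plec (SOX9 alone). The peak shares without Gse1 were not computed, so the lower shares are not read as a feature of all 6 genes. Among the 192 P17 SOX9 peaks of at least 10 kb, 58.9% overlapped H3K4me3 and 16.1% overlapped neither mark. Their median base share was 28.1% under H3K4me3 and 83.0% under H3K27ac. Taken by gene, the bases under P17 SOX9 peaks that lay under neither mark came to 100% at Ints1, 79.8% at Plec, 56.4% at Tnrc18, 12.4% at Cic, 0.443% at Gse1 and 0% at Pmepa1. The P17 SOX9 peaks of at least 10 kb at Ints1 and Plec had no base under either mark. Those at Cic and Gse1 lay mostly or wholly under H3K27ac, and Tnrc18 and Pmepa1 had none of that width. The P2 H3K27ac list holds 287845 peaks and the P17 list 29909, and they cover 525 and 173 Mb of the genome.

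**Figure D2:**
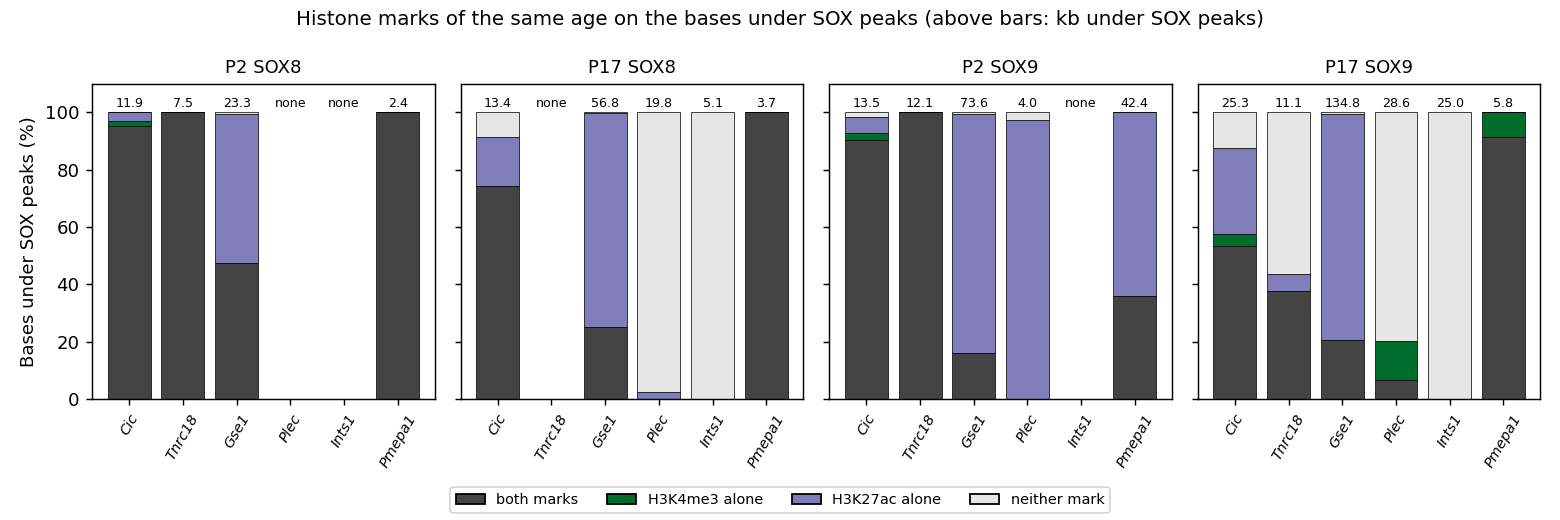
Percent of the bases under SOX peaks at each gene that lay under both histone marks, H3K4me3 alone, H3K27ac alone or neither mark of the same age; the number above each bar is the kb under SOX peaks, and "none" stands for no SOX peak. At P17 the bars of Plec and Ints1 are mostly or wholly of the neither class, while those of Pmepa1 hold none of it.

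The histone lists were not used to choose the genes, though SOX peaks and marks often coincide. H3K4me3 peaks lay at 5 of 6 genes at P2, all but Plec, and at 6 of 6 at P17. The share was 49.3% of all protein-coding genes at P2 and 50.9% at P17, and 60.1% and 62.5% among genes at least as long as Ints1. Peaks of H3K4me3 of at least 10 kb lay at Tnrc18, Gse1 and Pmepa1 at P2 (16692, 11772 and 15184 bp), 3 of 6 genes against 0.544% of all genes. At P17 such a peak lay at Tnrc18 (12541 bp), against 1.19% of all genes. H3K27ac peaks lay at all 6 genes at both ages, against 81.8% of all genes at P2 and 57% at P17. Among genes at least as long as Ints1 the shares were 95.1% and 70.1%. H3K27ac peaks of at least 10 kb lay at 5 of 6 genes at P2, all but Ints1, against 11.3%, and at 4 of 6 at P17 (Cic, Tnrc18, Gse1 and Pmepa1), against 14.8%. Shares for peaks of at least 10 kb were not computed among genes at least as long as Ints1. The contrasts for such peaks therefore do not allow for gene length. With no replicate values, none of these contrasts could be tested.

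Coverage of the gene windows was then set side by side for the ages. The lists come from whole retina, so a peak present in fewer cells and a weaker signal in each cell cannot be told apart. SOX9 peaks covered 37.1% of the Cic window at P2 and 69.2% at P17, 20.3% and 37.2% at Gse1, 5.68% and 40.6% at Plec, and 0% and 72.6% at Ints1. The order was the other way at Pmepa1, with 68.1% at P2 and 9.27% at P17, a 7.34-fold difference in covered bases. At Tnrc18 the values were 11.1% and 10.2%. P17 SOX9 thus covered more bases at 4 of 6 genes, against 39.5% of the 7020 protein-coding genes with a SOX9 peak at either age, and fewer at 2, against 60.5%. Pmepa1 was chosen on P2 SOX9, and Cic, Gse1 and Ints1 on P17 SOX9, so these directions partly follow from the choice.

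SOX8 peaks covered 32.6% of the Cic window at P2 and 36.6% at P17, 6.43% and 15.7% at Gse1, 0% and 28.1% at Plec, 0% and 14.9% at Ints1, and 3.82% and 5.92% at Pmepa1. At Tnrc18 they covered 6.91% at P2 and 0% at P17. P17 coverage was larger at 5 of 6 genes, against 50% of the 4382 genes with a SOX8 peak at either age. It was smaller at 1, against 49.9%. Plec was chosen on P17 SOX8, and Cic and Tnrc18 on P2 SOX8. Where SOX9 coverage was much smaller at P17, at Pmepa1, SOX8 coverage was 1.55 times that at P2.

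The marks had shares close to those of all genes in both cases. H3K4me3 covered more bases at P17 at 4 of 6 genes, against 58.9% of the 11879 genes with a peak at either age, a share near the background. It covered fewer at 2, against 41.1%. The smaller P17 values were at Pmepa1 (24.4% of the window at P2, 9.93% at P17) and Tnrc18 (15.3% and 11.5%). Plec had none at P2 and 8.79% at P17, and a peak at P17 with none at P2 was found in 5% of all genes. H3K27ac covered fewer bases at P17 at 5 of 6 genes, against 75.6% of 17963 genes, also near the background. Gse1 was the exception, with more at P17, against 24.3%. The P2 to P17 values were 86.9% and 12.3% at Tnrc18, 62.6% and 6.56% at Plec, and 47.3% and 5.96% at Ints1. At Plec and Ints1, larger SOX coverage at P17 went with smaller H3K27ac coverage, while at Cic (81.9% and 75.9%) and Gse1 it went with H3K27ac coverage that was nearly the same at both ages.

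**Figure D3:**
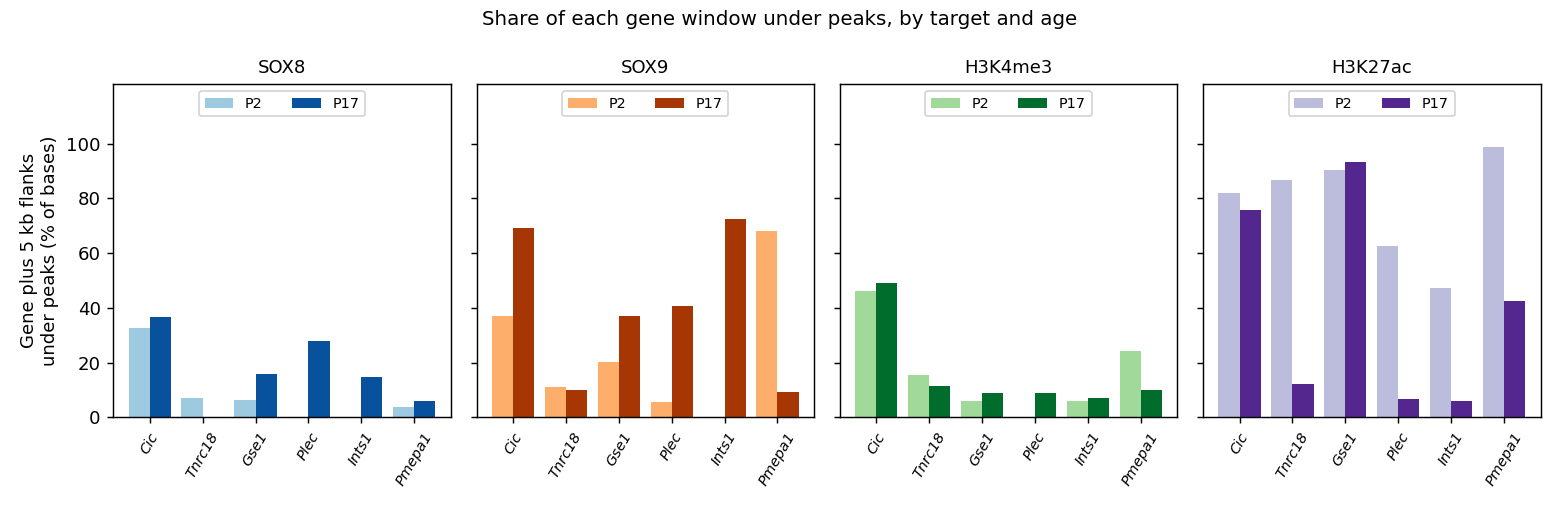
Percent of the bases of each gene plus 5 kb flanks under peaks of SOX8, SOX9, H3K4me3 and H3K27ac, with P2 as the lighter bar and P17 as the darker bar. SOX9 bars are taller at P17 for Cic, Gse1, Plec and Ints1 and taller at P2 for Pmepa1, and H3K27ac bars are taller at P2 for all but Gse1.

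Genes related in function were counted with the same windows: 49 genes in all, each matched to the table. A P2 SOX9 peak lay at 34 of them, a P2 SOX8 peak at 24, a P17 SOX9 peak at 19 and a P17 SOX8 peak at 16, against 27.7%, 15.1%, 15.7% and 13% of all protein-coding genes. An H3K4me3 peak at P2 lay at 42, against 49.3%. SOX peaks of at least 5 kb lay at 8 of the 49. The share of all genes with such a peak was not computed, so nothing is read from that count. The median width of the whole P17 SOX9 list was itself 5336 bp. Peaks of at least 10 kb lay at 3, of which 1 was in P2 SOX9 (Bahcc1, against 0.137% of all genes) and 2 in P17 SOX9 (Hmg20b and Ppl, against 1.55%). For CIC, the partners Atxn1 and Atxn1l and 6 ERK-responsive genes that it represses or that act in the same pathway (Etv1, Etv4, Etv5, Dusp6, Spry4 and Spred1) were counted. P2 SOX9 peaks lay at 7 of these 8 and P17 SOX9 peaks at 2, and none reached 5 kb. Bahcc1, the paralogue of Tnrc18, had a peak in all 4 SOX lists, the widest of 5289 bp in P2 SOX8, 4134 bp in P17 SOX8, 13549 bp in P2 SOX9 and 7576 bp in P17 SOX9. As at Tnrc18, the widest SOX9 peak at Bahcc1 was wider at P2 than at P17, and its P2 H3K4me3 peak was broad (13979 bp).

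Of 11 genes of the LSD1-CoREST-HDAC complex, with which GSE1 associates, 10 had a P2 SOX9 peak and 5 a P17 SOX9 peak. For this set and those below, the shares over all protein-coding genes were 27.7% and 15.7%. P2 H3K4me3 peaks lay at 11 of these 11 genes, against 49.3% of all genes. In the Integrator, plakin and TGF-beta sets below they lay at 12 of 13, 2 of 6 and 8 of 10. None of these counts was tested. Rcor2, which encodes a CoREST protein, had widths of 6448 and 8863 bp in SOX8 and 5465 and 8079 bp in SOX9 at P2 and P17. Hmg20b, a DNA-binding subunit, had a P17 SOX9 peak of 13798 bp against 1810 bp at P2. Hmg20b spans 4.90 kb and Rcor2 7.83 kb, so their widest P17 peaks reach beyond these genes. The place of those peaks was not recorded. Of 13 further Integrator subunit genes, 7 had a P2 SOX9 peak and 4 a P17 SOX9 peak, and none had a SOX peak of 10 kb or more. The widest was 6368 bp at Ints11, which encodes the endonuclease subunit, in P17 SOX9. Of 6 plakin genes, relatives of Plec that also link the cytoskeleton, 1 had a P2 SOX9 peak and 2 a P17 SOX9 peak. Those 2 were Evpl (8038 bp) and Ppl (11095 bp), both without H3K4me3 at either age. Of 10 genes of TGF-beta signalling, 8 had a P2 SOX9 peak and 5 a P17 SOX9 peak. The ligand genes Tgfb1 (5973 bp, P17 SOX9) and Tgfb2 (5037 bp, P2 SOX9) held the peaks of over 5 kb. Ldlrad4, the paralogue of Pmepa1, had a SOX peak in P2 SOX9 alone, of 3206 bp.

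Genes with the most similar coverage were found by the Euclidean distance over the 8 lists of log10 of covered bases plus 100. This is a description of likeness over 8 lists that share tissue and age, and coverage grows with gene length. Because the distance was built from these lists, likeness in the lists without a peak follows from the search and is not a separate result. The nearest to Cic was Kdm6b, a histone demethylase gene, at a distance of 0.346 against a median of 5.11 over all genes, followed by Midn (0.470) and Tbx2 (0.532). Kdm6b had 8.95, 18.6, 15.2 and 22.7 kb under P2 SOX8, P17 SOX8, P2 SOX9 and P17 SOX9, and Cic had 11.9, 13.4, 13.5 and 25.3 kb. The nearest to Tnrc18 were Tsc22d1 (0.489), Ptch1 (0.667) and Six3 (0.777), none of which had a P17 SOX8 peak. Six3, an eye-field homeobox gene, had 22.6 kb under P2 SOX9 and 18.7 kb under P17 SOX9. Those nearest to Gse1 were Camta1 (1.11), Ccdc85c (1.31) and Casz1 (1.39). Genes near Plec included Creb3l1 (1.11) and BC034090 (1.16), and both, like Plec, lacked P2 SOX8 and P2 H3K4me3 peaks.

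The nearest to Ints1 were Mybbp1a (0.561), Cdc42bpg (0.564) and Chmp6 (0.597). These 3 also had no SOX peak at P2, H3K4me3 of 2.37 to 3.66 kb and P17 SOX9 of 7.91 to 9.16 kb, under the 25.0 kb at Ints1. Those nearest to Pmepa1 were Lrba (0.760), Src (0.803) and Dnah2 (0.804). They had 11.6, 17.1 and 8.72 kb under P2 SOX9, against 42.4 kb at Pmepa1, and 3.37, 6.93 and 6.22 kb under P17 SOX9, against 5.77 kb.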

How the data were processed

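Nuclei of P2 and P17 mouse retina were profiled by CUT&RUN. Bowtie2, SEACR and the build GRCm38 are named, per the submitters' processing notes, with no version or setting. How replicates and the 2 SOX8 antibodies were combined, the threshold and the use of IgG are not given in the sources used here. The deposited lists hold peak starts and ends in base pairs, with a score of 0 in every row; another threshold or depth would give other numbers and widths of peaks.

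Starts were converted to count from 1. A peak was assigned to a gene when at least 1 bp of it fell within the gene or its 5 kb flanks, using RefSeq genes and promoters of GRCm38.p6. No test was run, since each group has 1 list and no replicate values. The background is the share of 21883 protein-coding genes with such a peak. The 6 genes and the related genes were chosen with earlier results of these data known. Genes named are the 6, related genes with a SOX peak of at least 5 kb, genes under a widest peak, and the 3 nearest in coverage; other genes named were chosen after their values were seen, and a few genes that fall under these rules are not reported here. Counting was tested on simulated data with planted peaks (Python 3.11.15, numpy 2.4.6, pandas 2.3.3). Alternatives were no flank, a 10 kb flank, peak centres, peaks of at least 1 kb, the 2400 widest peaks of each list, and neighbouring peaks joined.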

Additional observations from a re-analysis of the deposited data

How the results depend on the processing

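The number of the 6 genes with a peak was recomputed for each of the 8 lists, and 40 of 41 values were within 1.5 times the reported number. The exception was P17 H3K27ac, with 3 genes in place of 6 when the list was limited to its 2400 widest peaks. This limit keeps fewer peaks. It also gave 4 genes in place of 5 for P2 H3K4me3, and 5 in place of 6 for P17 H3K4me3 and P2 H3K27ac. The P17 SOX8 list holds 2400 peaks, so the limit left it unchanged. For the SOX lists it is a weak check, since the genes were chosen for wide SOX peaks. Limiting the P2 H3K27ac list to its 29909 widest peaks, a setting chosen after seeing the data, was within that range. The widest SOX peak at a gene was the same in 59 of 60 alternatives. That is also a weak check, since the genes were chosen for wide SOX peaks on them. Leaving out the flank or using peak centres, 20 alternatives each, could hardly change such a peak. When peaks less than 1 kb apart were joined, the widest P2 SOX9 peak at Gse1 was 10483 bp in place of 7966 bp. For 4 pairs of gene and list without a SOX peak there was no width to recompute. No paired analysis was possible because each list stands for a whole group and names no replicate; leaving out a replicate was not possible for the same reason. Peak width depends on the depth and the threshold behind each list, which are unknown, so widths from different lists, and their difference with age, were not tested.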

Other observations

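Exact peak edges were shared between lists at 3 places in these genes. At Tnrc18, the P17 H3K4me3 and P17 H3K27ac peaks both start at chr5 position 142811864. At Pmepa1, the P17 SOX8 and P17 H3K4me3 peaks both end at chr2 position 173277905, and at Gse1 a P2 SOX9 and a P2 H3K27ac peak both start at chr8 position 120415547. Over the whole lists, P17 H3K4me3 and P17 H3K27ac shared 29 starts, which is 0.301% of the 9629 H3K4me3 peaks.

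The peaks of at least 10 kb at the 6 genes were spread unevenly over the lists, with 0 in P2 SOX8, 2 in P17 SOX8, 2 in P2 SOX9 and 8 in P17 SOX9, 5 of the last at Gse1. In the whole lists such peaks made up 0.0377%, 0.333%, 0.511% and 6.73% of SOX8 at P2 and P17 and SOX9 at P2 and P17. The widest P17 SOX8 peak without a base under H3K4me3, of 727 such peaks, was the one at Plec, and the next was at Gse1. Of the 957 P17 SOX9 peaks without H3K4me3, the widest was at Gse1 and the third widest at Ints1.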
